A study of Homo sapiens with 4 samples.

Results

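A run of 53 genes on chromosome 11, from PTPMT1 on the short arm across the centromere to GDPD5 on the long arm, was followed in OVCAR-3 cells labelled as overexpressing the linker histone H1.3. The genes are a given list, of 18417 genes in the series with a transcript cluster of their own, a transcript cluster being the probe group that the array summarises into 1 value. The list was put together with the shift between the H1.3 and vector arrays already known, so the differences of its members describe that choice and are not tested as a list. A cluster was found for 51 of the 53 members, 47 on a cluster of their own and 4 (CTNND1, ARL2, ZFP91 and SLC43A3) on a cluster annotated to further genes as well. The expression of NXF1 and MAP4K2 was not analysed here, while their promoters are among those counted below.

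OVCAR-3 is an established human ovarian carcinoma cell line. The 2 H1.3 arrays came from OVCAR-3 cells labelled as overexpressing human H1.3, and the 2 vector arrays from OVCAR-3 cells transfected with vectors lacking it. Both groups grew in the same serum-containing medium, and the labels call the 2 replicates of each group biological without saying whether they were separate cultures, transfections or clones, so p-values measure only the spread between these arrays. The mean level of the H1.3 gene itself ran against the label: H1-3 measured 7.47 and 7.69 in the H1.3 arrays, against 8.65 and 7.88 in the vector arrays, which is -0.69 ± 0.24 (SE) on the log2 scale with a limma adjusted p of 0.319. It is unknown here whether the array's H1-3 probes cover the introduced insert, so higher and lower are said of the arrays labelled H1.3. All 11 epithelial and ovarian carcinoma markers lay at or above 6.84, the median log2 level of the named clusters. The 4 measured leukocyte and 4 endothelial markers lay below it, as did 4 of 5 fibroblast markers, and no marker passed the test.

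Linker histones bind the DNA where it enters and leaves the nucleosome and help to fold the chromatin fibre. H1.3 is one of several somatic variants with overlapping roles. The stretch of chromosome 11 on both sides of the centromere holds a dense set of housekeeping genes, many of them subunits of complexes whose other parts are encoded on other chromosomes, interspersed with large families of olfactory receptor genes that most tissues leave silent.

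Most of the members have the promoter type of widely expressed genes. Of the 53 genes, 48 were found in the RefSeq promoter table (GRCh38.p14), which gives 250 bases before and 50 after the start of each gene. Their windows had a median GC content of 66.0%, against 65.7% for genes measured at or above the median level and 58.3% for all 27305 promoters of the table. The letters GGGCGG, the GC box, stood on either strand in 83.3% of the member windows, in 72.5% of windows of genes at or above the median level and in 44.6% of all windows. CGGAAG, a core of ETS factor sites, stood in 41.7% of member windows, 34.9% of windows at or above the median level and 19.9% of all. CCAAT stood in 43.8%, 37.4% and 35.7%, and TATAAA in 2.08%, 5.3% and 12%. TGACGT stood in 8.33%, 12.4% and 8.32%, and GCATGC in 12.5%, 9.32% and 7.48%, each on either strand. GGGCGG and CGGAAG can share letters where they meet on opposite strands. A match describes letters only.

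The promoter windows below are those of the pair of members with the lowest differences (GDPD5 and TRPT1), of the member with the highest (SSRP1), and of KBTBD4 and NDUFS3, which start back to back. Capitals mark any of the 6 motifs on either strand, and each window runs 5′ to 3′ along its own gene. All are GRCh38.p14: GDPD5 at chr11:75525892-75526191 (minus strand), TRPT1 at chr11:64225820-64226119 (minus), SSRP1 at chr11:57335843-57336142 (minus), KBTBD4 at chr11:47578921-47579220 (minus) and NDUFS3 at chr11:47578824-47579123 (plus).
GDPD5: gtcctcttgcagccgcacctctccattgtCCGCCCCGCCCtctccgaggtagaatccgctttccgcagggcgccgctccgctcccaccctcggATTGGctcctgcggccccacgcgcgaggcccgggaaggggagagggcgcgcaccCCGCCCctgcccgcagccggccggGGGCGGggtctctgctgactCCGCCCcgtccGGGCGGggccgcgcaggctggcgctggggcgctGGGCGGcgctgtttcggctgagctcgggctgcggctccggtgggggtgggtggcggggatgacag
TRPT1: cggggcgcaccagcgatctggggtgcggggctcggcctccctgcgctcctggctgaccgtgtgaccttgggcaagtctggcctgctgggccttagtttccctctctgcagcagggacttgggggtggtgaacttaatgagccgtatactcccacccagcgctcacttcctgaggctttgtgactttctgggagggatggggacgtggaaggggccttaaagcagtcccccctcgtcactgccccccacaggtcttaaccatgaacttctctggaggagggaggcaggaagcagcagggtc
SSRP1: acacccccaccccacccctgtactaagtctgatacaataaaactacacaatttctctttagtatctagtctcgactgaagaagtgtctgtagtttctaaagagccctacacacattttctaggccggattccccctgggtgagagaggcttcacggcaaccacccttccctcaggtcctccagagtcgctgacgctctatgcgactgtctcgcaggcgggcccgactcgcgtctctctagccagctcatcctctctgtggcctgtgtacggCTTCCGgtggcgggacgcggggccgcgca
KBTBD4: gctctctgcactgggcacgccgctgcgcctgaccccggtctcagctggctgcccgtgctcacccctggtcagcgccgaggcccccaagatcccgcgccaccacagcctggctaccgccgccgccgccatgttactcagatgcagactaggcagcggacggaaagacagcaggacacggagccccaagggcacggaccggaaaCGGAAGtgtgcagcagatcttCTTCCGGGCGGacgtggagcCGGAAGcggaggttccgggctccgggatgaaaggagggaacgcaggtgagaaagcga
NDUFS3: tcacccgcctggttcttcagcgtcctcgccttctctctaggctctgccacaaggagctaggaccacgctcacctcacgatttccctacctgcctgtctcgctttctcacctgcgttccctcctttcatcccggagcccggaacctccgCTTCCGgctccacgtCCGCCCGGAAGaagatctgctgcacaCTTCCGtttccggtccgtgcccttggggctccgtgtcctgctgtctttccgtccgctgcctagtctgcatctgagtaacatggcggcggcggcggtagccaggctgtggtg

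The GDPD5 window carried 7 matches to the GC box and 1 to the CCAAT letters, and 77.0% of its bases were G or C. The TRPT1 window held no match to the motifs searched, and the SSRP1 window held 1, to CGGAAG. KBTBD4 and NDUFS3 share 203 bases of window, with 104 bases between their starts. Each window holds 3 matches to CGGAAG, which lie in the shared bases and are the same sites read from opposite strands. The pair MED19 and TMX2 shares 123 bases of window. In expression KBTBD4 differed by -0.03 ± 0.11 and NDUFS3 by -0.295 ± 0.12 (SE, log2, H1.3 minus vector), and whether they differed from each other was not tested. MED19 and TMX2 differed by -0.265 and -0.305.

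Transcript levels of the members were mostly a little lower in the H1.3 arrays than in the vector arrays. The median log2 difference over the 51 members was -0.235, a level of 85% of that in the vector arrays, and the middle of the distribution ran from -0.33 to -0.11 (quartiles). The difference was below 0 for 50 of 51 members, as it was for 45.9% of the 21214 named clusters, whose median was 0.015. Both H1.3 arrays lay below both vector arrays for 38 members, an arrangement found in 19.4% of all named clusters, while 13 members overlapped. Of the members, 48 lay at or above the median level of the named clusters. At that level, 51.6% of named clusters differed below 0 and 25.9% had both H1.3 arrays below both vector arrays. For no member did both H1.3 arrays lie above both vector arrays, as they did in 21.2% of all named clusters. A difference of -0.2 or lower was measured for 29 members (14.3% of all named clusters) and one of -0.5 or lower for 6 (2.98%). These are bulk measurements, in which fewer cells with a transcript and less of it in each cell cannot be told apart.

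With 2 arrays a group, hardly any single member passed the test over all named clusters. In limma with Benjamini-Hochberg adjustment over 21214 clusters, 1 member was called lower (0.264% of all clusters) and 0 were called higher (0.24%). At an unadjusted limma p under 0.05, 20 members were lower and 0 higher, against 6.34% of all clusters lower. Since this contrast chose the members, these counts are a description of the list. An exact permutation test of 2 arrays against 2 cannot give a two-sided p below 0.333, so none was run. The member called, GDPD5, lost its call without any 1 of the 4 arrays (adjusted p from 0.433 to 0.802), with differences from -0.955 to -0.765.

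**Figure D1:**
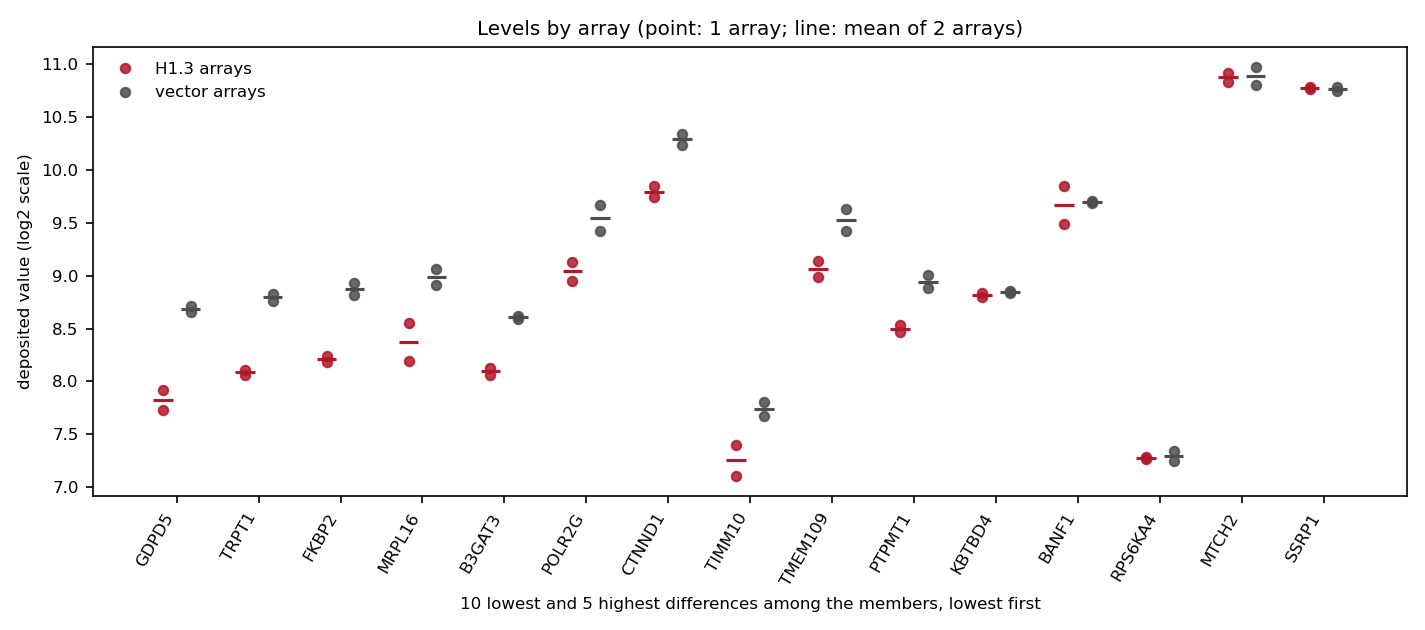
Deposited log2 values of the members with the 10 lowest and the 5 highest differences; each point is 1 array, each line the mean of 2 arrays, with H1.3 arrays in red on the left and vector arrays in grey on the right. In GDPD5, TRPT1 and FKBP2 the H1.3 arrays lie 0.58 to 0.74 below the nearest vector array, and in the last 5 genes the arrays of the groups meet or overlap.

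GDPD5, whose product is a membrane phosphodiesterase that cleaves GPI-anchored proteins from the cell surface, had the lowest difference. It measured 7.73 and 7.92 in the H1.3 arrays, against 8.66 and 8.71 in the vector arrays, a log2 difference of -0.86 ± 0.12 (SE) with a limma adjusted p of 0.0475. Every H1.3 array was thus below every vector array, and the level was 55.1% of that in the vector arrays. Its nearest neighbours at or above the median level differed less. KLHL35 before it differed by -0.245, SERPINH1 after it by -0.12 and DGAT2 by -0.37 (limma adjusted p 0.679, 0.782 and 0.265). A little further on, UVRAG differed by 0.055 and WNT11 by -0.615 (limma adjusted p 0.918 and 0.287). TPCN2, a lysosomal cation channel and the member next to GDPD5 on the list, measured 8.03 and 7.69 in the H1.3 arrays, against 7.87 and 7.99 in the vector arrays, so that the groups overlapped.

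Among members for mitochondrial proteins, the median of 6 was -0.37. In 5 of them both H1.3 arrays lay below both vector arrays, against 25.9% of named clusters at or above the median level. All 6 were higher in H1.3 replicate 2 than in H1.3 replicate 1, by a median of 0.115. In vector replicate 2, 5 were lower than in vector replicate 1, and the median change was -0.135. Medians by array pair ran from -0.47 for the replicates numbered 1 to -0.285 for those numbered 2. MRPL16, a protein of the large mitochondrial ribosomal subunit, measured 8.19 and 8.55 in the H1.3 arrays, against 9.06 and 8.91 in the vector arrays, a difference of -0.615 ± 0.15 (SE). TIMM10, a chaperone that guides membrane proteins across the intermembrane space, measured 7.11 and 7.40 in the H1.3 arrays, against 7.81 and 7.67 in the vector arrays. PTPMT1, a phosphatase of cardiolipin synthesis and the first member in order, measured 8.47 and 8.53 in the H1.3 arrays, against 9.01 and 8.88 in the vector arrays. In these 3 genes the groups were apart by at least 0.27, and the unadjusted p lay between 0.0047 and 0.0104 while the adjusted p lay between 0.153 and 0.218 in limma. The complex I core subunit gene NDUFS3 measured 10.46 and 10.60 in the H1.3 arrays, against 10.86 and 10.79 in the vector arrays. SDHAF2, which helps to attach the flavin cofactor to succinate dehydrogenase, measured 9.71 and 9.72 in the H1.3 arrays, against 9.99 and 10.02 in the vector arrays. MTCH2, an insertase of the outer membrane, was the exception, at 10.83 and 10.92 in the H1.3 arrays, against 10.97 and 10.80 in the vector arrays, with the groups overlapping.

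Of 10 members that act in transcription or on chromosomes, 9 differed below 0, and their median was -0.19. POLR2G encodes a subunit of the stalk of RNA polymerase II. It measured 8.95 and 9.13 in the H1.3 arrays, against 9.67 and 9.42 in the vector arrays, a difference of -0.505 ± 0.14 (SE). DDB1, the adaptor of CUL4 ubiquitin ligases, measured 10.29 and 10.27 in the H1.3 arrays, against 10.63 and 10.57 in the vector arrays. In both genes the H1.3 arrays lay below the vector arrays, without passing after adjustment (adjusted p 0.193 and 0.328). TAF6L, a subunit of the SAGA coactivator, differed by -0.285, MED19 of Mediator by -0.265, the menin gene MEN1 by -0.21 and INTS5 of the Integrator complex by -0.165. INCENP, the scaffold of the chromosomal passenger complex, measured 8.56 and 8.55 in the H1.3 arrays, against 8.66 and 8.70 in the vector arrays, a small difference of -0.125 with little spread on either side. SSRP1, a subunit of the histone chaperone FACT, was the member that did not lie below 0: it measured 10.77 and 10.78 in the H1.3 arrays, against 10.75 and 10.78 in the vector arrays. ESRRA, an orphan nuclear receptor gene, measured 8.62 and 8.09 in the H1.3 arrays, against 8.40 and 8.42 in the vector arrays, so that the H1.3 arrays lay on both sides of the vector arrays. The clusters of BANF1, which links DNA to the nuclear envelope, disagreed. The brighter one measured 9.85 and 9.49 in the H1.3 arrays, against 9.71 and 9.69 in the vector arrays, and the other 9.17 and 9.34 in the H1.3 arrays, against 9.79 and 9.66 in the vector arrays, differences of -0.03 and -0.47.

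RNA processing and export was represented by 7 measured members with a median of -0.22. TRPT1, a tRNA phosphotransferase, measured 8.11 and 8.06 in the H1.3 arrays, against 8.83 and 8.76 in the vector arrays. Its difference of -0.71 ± 0.11 (SE) had a limma adjusted p of 0.0636, just outside the threshold, and the level was 61.1% of that in the vector arrays. PRPF19, a ubiquitin ligase of the spliceosome, measured 10 and 9.97 in the H1.3 arrays, against 10.32 and 10.27 in the vector arrays, again with the groups apart. CLP1, an RNA kinase, differed by -0.235 and TUT1, a terminal uridylyltransferase, by -0.22. SF1, which recognises the branch point of introns, differed by -0.11, and FNBP4 by -0.105. The nuclear pore gene NUP160 measured 10.22 and 10.07 in the H1.3 arrays, against 10.18 and 10.24 in the vector arrays, and the groups overlapped.

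The 8 members for translation, protein folding or protein turnover had a median of -0.32. FKBP2, a prolyl isomerase of the endoplasmic reticulum, measured 8.24 and 8.18 in the H1.3 arrays, against 8.93 and 8.82 in the vector arrays, a difference of -0.665 ± 0.12 (SE) with a limma adjusted p of 0.0798. STIP1, a co-chaperone that bridges heat shock proteins, measured 10.76 and 10.67 in the H1.3 arrays, against 11.14 and 11.05 in the vector arrays. GANAB, the catalytic subunit of glucosidase II, measured 10.97 and 10.96 in the H1.3 arrays, against 11.28 and 11.30 in the vector arrays. The groups were apart in all 3, by 0.58, 0.29 and 0.31. OTUB1, a deubiquitinase, measured 9.55 and 9.56 in the H1.3 arrays, against 9.88 and 9.85 in the vector arrays. EEF1G, a subunit of the elongation factor that loads tRNA on ribosomes, measured 12.61 and 12.73 in the H1.3 arrays, against 12.86 and 12.96 in the vector arrays. UBXN1, a ubiquitin-binding protein, differed by -0.36, whereas the ubiquitin ligase genes ZFP91 and KBTBD4 differed by -0.125 and -0.03.

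Membrane traffic and the secretory pathway held 11 members, with a median of -0.225. In 9 of them both H1.3 arrays lay below both vector arrays, against 25.9% of named clusters at or above the median level. B3GAT3, which adds glucuronic acid to the linker of glycosaminoglycan chains, measured 8.06 and 8.13 in the H1.3 arrays, against 8.59 and 8.62 in the vector arrays, a difference of -0.51 ± 0.11 (SE) with a limma adjusted p of 0.124. TMEM109, a membrane protein of the endoplasmic reticulum, measured 9.14 and 8.99 in the H1.3 arrays, against 9.63 and 9.42 in the vector arrays. Both genes had their groups apart, by 0.46 and 0.28. RTN3, a reticulon that shapes the endoplasmic reticulum, differed by -0.33, TMX2, a thioredoxin-related membrane protein, by -0.305, ZFPL1 of the Golgi by -0.29 and TMEM138, a cilium protein, by -0.225. The SNARE genes STX3 and STX5 differed by -0.175 and -0.095, EHD1 of endocytic recycling by -0.155 and the ESCRT-I gene VPS37C by -0.035. The cluster shared by ARL2 and the ARL2-SNX15 readthrough measured 9.13 and 9.25 in the H1.3 arrays, against 9.26 and 9.34 in the vector arrays, with 0.01 between the nearest arrays.

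Among signalling, adhesion and cytoskeletal members, the cluster of CTNND1, the catenin that stabilises cadherins, is shared with a TMX2-CTNND1 readthrough. It measured 9.74 and 9.85 in the H1.3 arrays, against 10.24 and 10.34 in the vector arrays, a difference of -0.495 ± 0.12 (SE). AHNAK, a giant scaffold protein, measured 10.85 and 11 in the H1.3 arrays, against 10.93 and 11.28 in the vector arrays, and the groups overlapped. The calpain gene CAPN1 differed by -0.15, the polarity kinase gene MARK2 by -0.065 and the kinase gene RPS6KA4 by -0.015. RPS6KA4 measured 7.29 and 7.27 in the H1.3 arrays, against 7.34 and 7.25 in the vector arrays, so that its H1.3 arrays lay between the vector arrays. Of the transporters, SLC43A1 measured 6.24 and 6.24 in the H1.3 arrays, against 6.20 and 6.76 in the vector arrays, where 1 vector array made the difference of -0.24. The cluster shared by SLC43A3 and PRG2 measured 4.86 and 4.77 in the H1.3 arrays, against 4.90 in both vector arrays, and was the lowest of the 3 members below the median level.

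Taking the arrays in pairs, the shift was present in each of the 4 pairings of an H1.3 array with a vector array. H1.3 replicate 1 was lower than vector replicate 1 for 44 of 51 members (43% of all named clusters) and lower than vector replicate 2 for 45 (44%), with median differences of -0.20 and -0.28. H1.3 replicate 2 was lower than vector replicate 1 for 46 members (49.7%) and lower than vector replicate 2 for 48 (52%), with medians of -0.21 and -0.26. Within a group the members showed no common shift: replicate 2 minus replicate 1 had a median of 0.00 in the H1.3 arrays and 0.02 in the vector arrays. In absolute size those replicate differences had medians of 0.09 and 0.07, and the group differences a median of 0.235. Over all named clusters these medians were 0.15, 0.13 and 0.12. For 33 members the group difference was larger than the replicate difference of either group, which the choice of the members favours. The share of all named clusters in that arrangement was not counted.

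**Figure D2:**
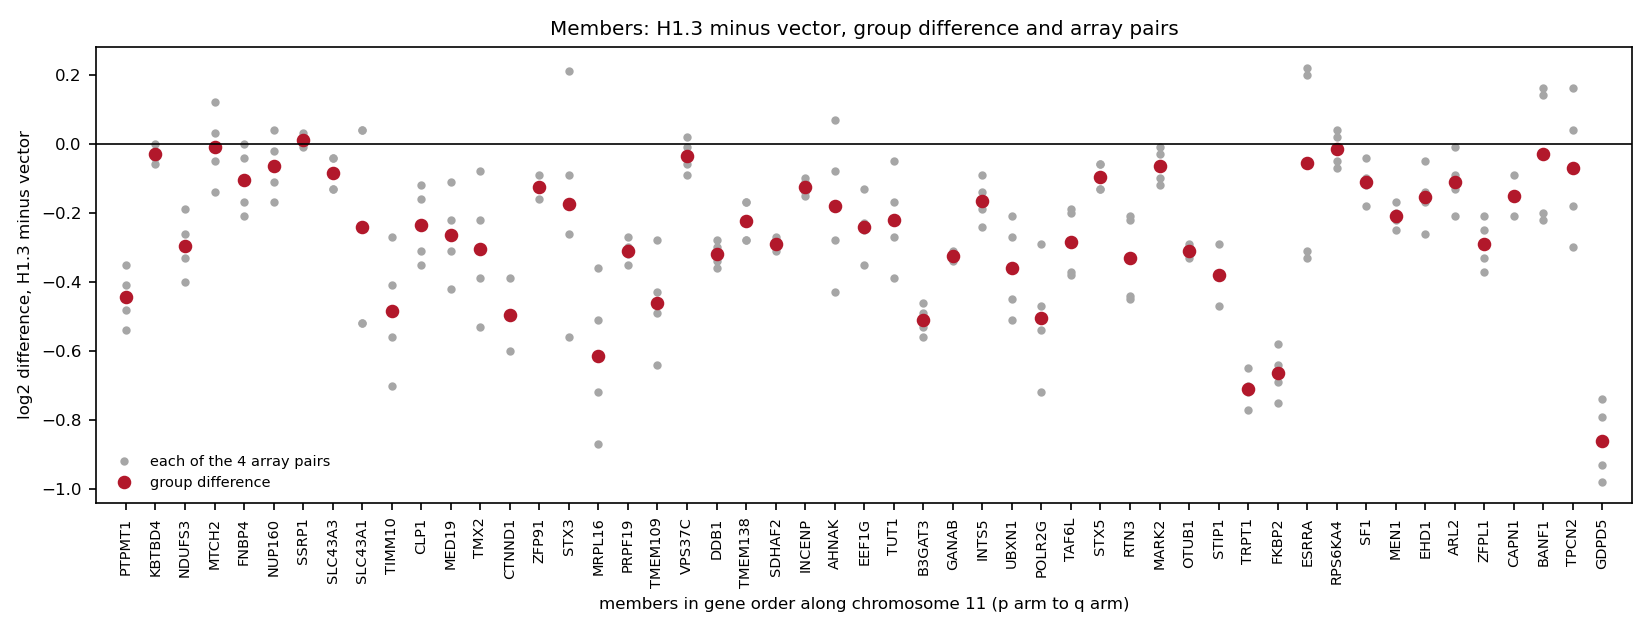
Log2 difference, H1.3 minus vector, of the 51 measured members in gene order along chromosome 11; red points are the group differences and grey points the 4 pairings of 1 H1.3 array with 1 vector array. The red points lie between -0.86 and 0.01, and GDPD5, TRPT1, FKBP2 and MRPL16 are the lowest.

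Along the list the shift was uneven. The 6 members on the short arm, from PTPMT1 to NUP160, had a median difference of -0.085, and only PTPMT1 and NDUFS3 among them had both H1.3 arrays below both vector arrays. From SSRP1 to SDHAF2, the first members beyond the centromere, the median of 17 members was -0.265, and from INCENP to STX5 that of 11 was -0.24. From RTN3 to BANF1 it was -0.155 over 15 members, although TRPT1 and FKBP2, neighbours on the list, lie in this segment, as do RPS6KA4 and MARK2. The bounds of these segments were set after the values were seen. Differences of the members had a rank correlation of only -0.08 with their mean level over the 51 members, which share the same 4 arrays.

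Genes of the same interval that are not on the list mostly differed below 0 as well where they were expressed. Of 404 such genes with a cluster of their own, 184 lay at or above the median level, and these had a median difference of -0.205 with 153 below 0, or 83.2%, against 51.6% of all named clusters at or above that level. Both H1.3 arrays lay below both vector arrays in 109 of the 184 (59.2%), against 25.9% of named clusters at that level. The 220 dimmer genes of the interval had a median of 0.02. From SSRP1 up to INCENP, from INCENP up to RTN3 and from RTN3 to BANF1, the expressed genes outside the list had medians of -0.265, -0.30 and -0.145. From TPCN2 to GDPD5 the median of 48 was -0.195, with 13 above 0. The 3 expressed genes outside the list from PTPMT1 up to SSRP1 had a median of 0.135, with 0 below 0. Of these, C1QTNF4 (0.135) alone lies before NUP160. In the stretch between BANF1 and TPCN2, where the list has no gene, the median of 52 genes was -0.22. The interval was chosen on this contrast too, so these values are given without a test.

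Of the genes outside the list, limma called GSTP1, a glutathione transferase gene, and the dim folate receptor gene FOLR1 lower and 0 higher, and none stayed called when any 1 array was left out. GSTP1 measured 10.94 and 10.96 in the H1.3 arrays, against 11.96 and 11.93 in the vector arrays (adjusted p 0.0264). FOLR1 measured 5.62 and 5.43 in the H1.3 arrays, against 6.95 and 6.62 in the vector arrays (adjusted p 0.0291). The next lowest expressed genes were LRP5, a Wnt co-receptor (-0.835), the cathepsin gene CTSF (-0.81), TMEM258, a subunit of oligosaccharyltransferase (-0.74), the sterol reductase gene TM7SF2 (-0.725) and the small nucleolar RNA SNORD28 (-0.715), none of which passed. Values ran the other way for some genes of the interval. FADS2, a fatty acid desaturase, measured 10.01 and 10.48 in the H1.3 arrays, against 9.77 and 9.88 in the vector arrays, 0.42 higher with an adjusted p of 0.404, which did not pass. Other positive differences, none called, were those of ALDH3B2 (0.52), the nucleotide receptor genes P2RY2 (0.37) and P2RY6 (0.355), DTX4 (0.315) and SHANK2-AS3 (0.245).

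**Figure D3:**
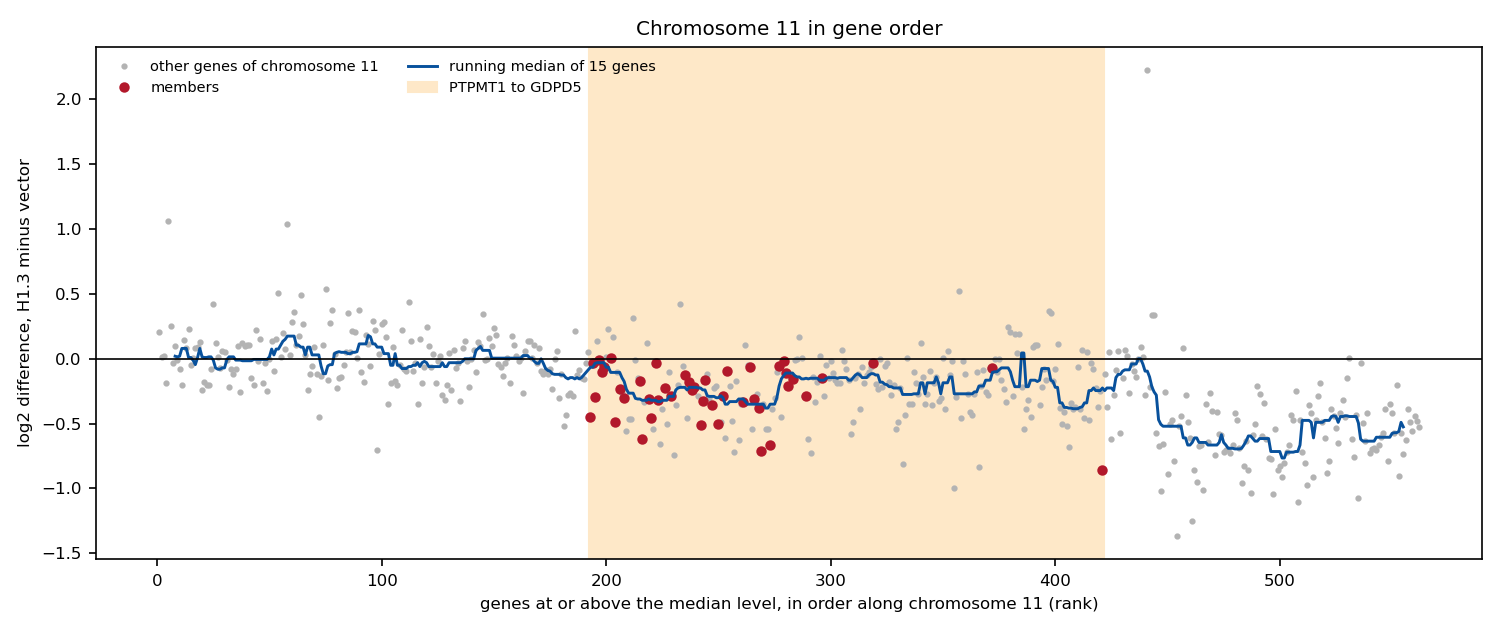
Log2 difference, H1.3 minus vector, of the 562 genes of chromosome 11 with a cluster of their own at or above the median level, in gene order by rank; red points are the 45 members among them, grey points the other genes, the blue line a running median of 15 genes, and the shaded band runs from PTPMT1 to GDPD5. The line lies between -0.155 and 0.18 before the band, with its lowest values there a few genes ahead of PTPMT1, lies between -0.385 and 0.045 within it, and reaches -0.765 beyond it.

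Seen along the whole chromosome, the interval lay between a part near 0 and a part that was lower still. The 192 expressed genes before PTPMT1 had a median of 0.00 and 48.4% below 0, but the 20 nearest to PTPMT1 had a median of -0.12 with 16 below 0, so the first member does not mark where the lower values begin. Beyond GDPD5 the median of 141 expressed genes was -0.545, with 91.5% below 0, although the nearest 20 had a median of only -0.09. The running median reached its lowest value within the interval at C2CD3 and its lowest on the chromosome at USP28. By comparison, the 106 expressed genes of the short arm of chromosome 8 from FBXO25 to HOOK3 had a median of -0.42. Over all expressed genes, chromosome 11 had the second lowest median of the 23 chromosomes with at least 20 such genes (-0.185), after chromosome 8 (-0.235), and the 8741 expressed genes off chromosome 11 had a median of 0.00. In 10 bins of named clusters by mean level, the median differences ran from -0.03 to 0.045.

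Many members work in complexes, and partners encoded on other chromosomes differed by about 0 at the median. Of 169 partner genes in 27 complexes or pathways, listed from textbook knowledge, 157 were measured, 141 of them off chromosome 11. Those 141 had a median difference of -0.015, 75 lay below 0 and 65 above. Both H1.3 arrays lay below both vector arrays in 37 (26.2%, against 25.9% of named clusters at or above the median level). They lay above both in 35 of the 141, as they did in 2303 of the 10612 named clusters at that level. Limma called 0 in either direction. At an unadjusted limma p under 0.05, 9 were lower and 5 higher, against 6.34% and 5.21% of all named clusters. Among the 10612 named clusters at or above the median level, 958 were lower and 646 higher by the same rule. In 25 of the 26 complexes that could be compared, the member lay below the median of its partners off chromosome 11, a direction that the choice of the members favours. The exception was VPS37C, at -0.035 against a median of -0.05 for ESCRT-I.

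RNA polymerase II gives an example. POLR2G differed by -0.505, whereas the 10 measured subunits off chromosome 11 ran from -0.26 to 0.105 with a median of -0.05, and the largest subunit gene, POLR2A, measured 8.78 and 8.72 in the H1.3 arrays, against 8.61 and 8.79 in the vector arrays. CTNND1 differed by -0.495 and CDH1, the E-cadherin that its product binds, by 0.01, at 10.32 and 10.19 in the H1.3 arrays, against 10.25 and 10.24 in the vector arrays. In the same junction, CTNNA1 and CTNNB1 differed by 0.06 and 0.025. JUP, the plakoglobin gene, measured 9.56 and 9.64 in the H1.3 arrays, against 9.89 and 9.99 in the vector arrays, a difference of -0.34 that did not pass (adjusted p 0.313). TIMM10 differed by -0.485 and TIMM9, the other subunit of the same chaperone, by -0.115. STIP1 differed by -0.38, and the 3 heat shock protein genes off chromosome 11 by 0.015 to 0.125. For FACT, SSRP1 and SUPT16H differed by 0.01 and 0.14. The lowest partners off chromosome 11 were INTS9 (-0.705), ASH2L (-0.675), NDUFV2 (-0.62) and INTS10 (-0.48), of which all but NDUFV2 lie on chromosome 8. The highest were PLRG1 and MED27, both at 0.535.

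Partners encoded on chromosome 11 itself are given by their place. The pair within the interval, the complex I genes NDUFV1 and NDUFS8, differed by -0.295 and -0.27, close to the -0.295 of NDUFS3, while the 9 complex I partners off the chromosome had a median of -0.165 and a range from -0.62 to 0.085. The 8 partners beyond GDPD5 had a median of -0.515, among them SDHD (-1.04) and TIMM8B (-0.775). The 6 before PTPMT1 had a median of -0.07. None of these 16 passed limma over all named clusters, with adjusted p of 0.0509 for TIMM8B and 0.0798 for SDHD.

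**Figure D4:**
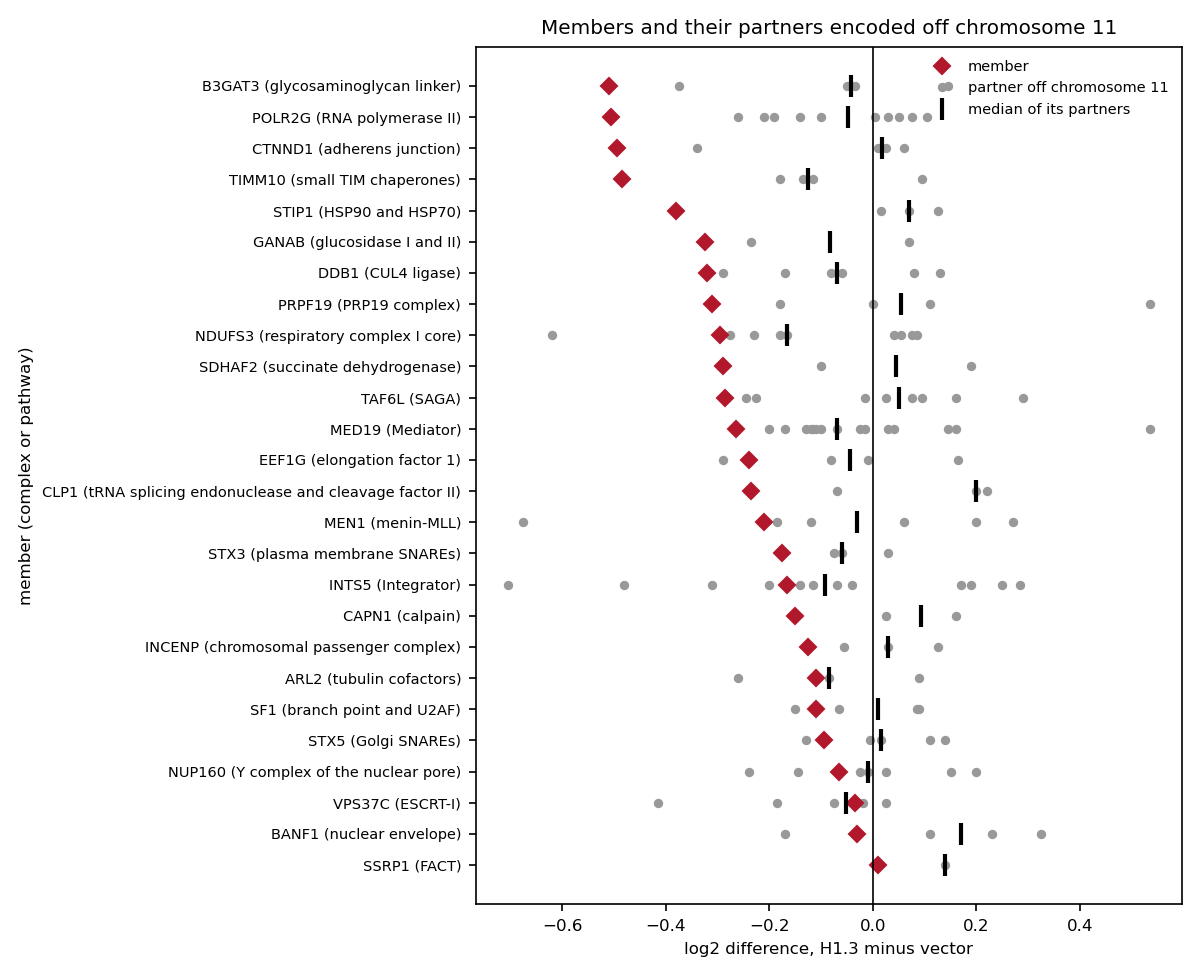
Log2 difference, H1.3 minus vector, of 26 members (red diamonds) and of their complex or pathway partners encoded off chromosome 11 (grey points), with the median of the partners as a black bar; rows are ordered by the difference of the member. The members lie between -0.51 and 0.01, and 21 of the 26 partner medians lie within 0.1 of 0.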

How the data were processed

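Deposited were log2 values of 33297 transcript clusters, with a column for each array. RMA and Affymetrix Expression Console made them, per the submitters' processing notes, without versions or a genome build. RMA as published equalises the arrays and summarises several probes per cluster, and no probe signal was used here. The series describes an exon array, while the clusters carry the identifiers of the platform annotation table used for naming.

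Symbols came from that annotation, updated through gene identifiers to RefSeq (GRCh38.p14), which also gave the gene order. Of the clusters, 19460 had 1 symbol, 1754 several and 12083 none. Where a gene had more than 1 cluster, the brightest by mean was used. The 21214 clusters with a symbol were tested with limma 3.58.1 in R 4.3.3 (lmFit, eBayes, two-sided), H1.3 minus vector, with Benjamini-Hochberg adjustment called under 0.05. Residual degrees of freedom were 2, and moderation added 5.16. Standard errors of the log2 differences had a median of 0.13, and the number of arrays limits the precision. The steps were tested on simulated data.

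Members and lists were chosen with earlier results of these data known. The partner, role and marker lists were written by hand. Values in every array are given for members that passed, the 10 lowest and 5 highest differences, the first and last member and at least 1 member of each role, and others are named to account for every member. Outside the list, the 6 lowest and 6 highest expressed genes of the interval and those that passed are named. Alternatives changed moderation, scaling, dim clusters, clusters tested, threshold, replicate block, gene summary and each array in turn. Plots used matplotlib 3.10.9 in Python 3.11.15.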

Additional observations from a re-analysis of the deposited data

How the results depend on the processing

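The member median of -0.235 stayed between -0.255 and -0.19 when each array was left out, and between -0.24 and -0.205 in the other settings. The number of the 51 members below 0, 50 as reported, was 46 to 49 without each array. It was at least 47 in the other settings that kept all 51 members, and 47 of 48 without clusters below the median level. Leaving out each array gave a lowest member difference between -0.955 and -0.765 and a highest between 0.035 and 0.21, and left 0 clusters, members and interval genes called higher or lower, where a single remaining array is taken to vary as the other group does. The number of members called lower, 1 as reported, was 3 with the robust intensity trend and 3 at an adjusted p under 0.10. It was 0 without clusters below the median level, where 48 members were tested, and 0 with all transcript clusters. The adjusted p of GDPD5 was 0.0644 and 0.21 in those last settings, and from 0.0189 to 0.802 over all refits. With the numbers of the replicates as a replicate block, 0 members, 0 other interval genes and 0 named clusters were called in either direction, and GDPD5 had an adjusted p of 0.184. Replicate differences of the groups correlated at 0.06 over the named clusters and at 0.11 over the members, and the labels give the numbers no shared batch, so they were read as names only. Higher and lower named clusters, 51 and 56 as reported, were 107 and 138 with the robust intensity trend, 1 and 3 with all transcript clusters, 6 and 19 when dim ones were dropped, and 135 and 176 at an adjusted p under 0.10. Setting the arrays at one median changed nothing, since their medians over the named clusters were already equal. Interval genes outside the list, with 2 called lower, had 6 with the robust intensity trend, 6 at an adjusted p under 0.10, 0 with all transcript clusters and 1 when clusters dimmer than the median were dropped. Their median of -0.06 over 404 genes ran from -0.11 to -0.01 without each array, with 205 to 288 genes below 0, and was -0.205 with 153 below 0 without clusters below the median level, where 184 genes were left. Partners off chromosome 11 had 1 called lower and 1 higher with the robust intensity trend and 1 lower at an adjusted p under 0.10. Counting only the 47 members with a cluster of their own, an alternative chosen after seeing the data, gave a median of -0.24 with 46 below 0. Where the construction of a setting does not show it, the cause of a change was not tested.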
